A study of Mus musculus with 9 samples.

Results

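A set of 10 genes of MHC class I antigen presentation was followed through RNA-seq of the salivary gland line mSGc and of the oral keratinocyte line IMOK. They were chosen by name, as the table entries *H2-K1*, *H2-D1*, *H2-T23*, *B2m*, *Tap1*, *Tap2*, *Tapbp*, *Psmb8*, *Psmb9* and *Nlrc5*, and all 10 were found among the 23366 gene entries. mSGc is an epithelial line that immortalized spontaneously from submandibular salivary glands of adult male C57BL/6 mice, is a mixed population, and has a karyotype with abnormalities of chromosomes 8 and Y. It was sequenced as 6 libraries, 1 each at passages P2, P4, P10 and P25 in the medium labelled progenitor and 1 each at P10 and P25 in the medium labelled differentiating. The progenitor medium was taken to be the serum-free medium with dexamethasone, in which the line was first grown, and the differentiating medium the one with serum, retinoic acid, hydrocortisone and triiodothyronine. IMOK, immortalised oral keratinocytes of C57BL/6 mice labelled early passage, was sequenced as 3 replicates in a medium of its own. Line, medium and experiment therefore cannot be told apart where mSGc is set against IMOK. The paper compared P10 mSGc with IMOK because both had the same passage number, so the other mSGc libraries also differ from IMOK in passage.

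MHC class I molecules show peptides from a cell's own proteins to CD8+ T cells. The proteasome cuts the proteins, and under interferon it exchanges its catalytic subunits for those of the immunoproteasome, among them Psmb8 and Psmb9. The transporter made of Tap1 and Tap2 moves the peptides into the endoplasmic reticulum, where tapasin (*Tapbp*) helps to load them onto a heavy chain paired with beta-2-microglobulin (*B2m*). H2-K1 and H2-D1 are classical heavy chains, and H2-T23 (Qa-1) is a nonclassical one that is read by inhibitory receptors of natural killer cells. Nlrc5 is the transcriptional activator of this gene set, and acts through promoter elements known as the SXY module. Most nucleated cells, epithelial cells included, carry class I molecules and raise them in response to interferon.

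Reads counted on genes numbered from 6237884 (P25 in differentiating medium) to 18444963 (IMOK replicate 1) per library. All 7 epithelial markers reached 1 TPM (a level per gene length and library size, computed from the counts) in all 9 libraries, with a summed level of 13130 to 24100 TPM in mSGc and 10070 to 11720 TPM in IMOK. IMOK replicate 1 stood apart from the other replicates, since its correlation with them across 13306 genes was 0.930 and 0.916, against 0.991 between replicates 2 and 3. The tests against IMOK are therefore also given without it, for the 10 genes and for the lists of related genes. The summed level of 9 leukocyte markers was 2.01 to 4.15 TPM in mSGc and 33.5, 9.01 and 4.75 TPM in IMOK replicates 1 to 3. Nearly all of it came from *Cd68*, at 33.4 TPM in replicate 1, while the pan-leukocyte gene *Ptprc* stayed at or below 0.112 TPM in every library and 3 of the 9 markers had no counts at all. The 5 fibroblast markers summed to 18.7 TPM at P2 and to 0.320 to 4.26 TPM in the other mSGc libraries, and to 6.41, 1.23 and 1.35 TPM in IMOK. In such bulk RNA, fewer cells that express a gene and less RNA per cell cannot be told apart.

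The sequence before the start is shown for 5 of the genes, the 3 heavy chains, *B2m* and *Tap1*, since promoters of this gene set are well studied for elements that respond to interferon, NF-kappaB and Nlrc5. RefSeq entries were found for 8 of the 10, all but *Tap2* and *Nlrc5*. The 200 bases before the start are given 5′ to 3′ on the gene's own strand, from RefSeq's GRCm38.p6 promoter table, with their place in mm9, the build of the counts. Capitals mark every occurrence, on either strand, of GAAANNGAA (core of the interferon response element), GGGGANNCC (kappaB-like), CCAAT (Y box core, also read as ATTGG), TGACGTCA and TGACGC (X2 box or CRE-like).
*H2-K1*, mm9 chr17:34137279-34137478, minus strand: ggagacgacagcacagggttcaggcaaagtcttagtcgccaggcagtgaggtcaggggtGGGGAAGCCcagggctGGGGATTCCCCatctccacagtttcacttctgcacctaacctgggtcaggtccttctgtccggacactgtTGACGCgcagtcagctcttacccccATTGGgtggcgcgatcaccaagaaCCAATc
*H2-D1*, mm9 chr17:35399839-35400038, plus strand: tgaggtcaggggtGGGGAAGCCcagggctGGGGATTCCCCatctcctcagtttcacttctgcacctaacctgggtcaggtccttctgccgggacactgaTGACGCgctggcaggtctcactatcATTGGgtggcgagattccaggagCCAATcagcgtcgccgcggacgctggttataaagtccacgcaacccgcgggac
*H2-T23*, mm9 chr17:36169647-36169846, minus strand: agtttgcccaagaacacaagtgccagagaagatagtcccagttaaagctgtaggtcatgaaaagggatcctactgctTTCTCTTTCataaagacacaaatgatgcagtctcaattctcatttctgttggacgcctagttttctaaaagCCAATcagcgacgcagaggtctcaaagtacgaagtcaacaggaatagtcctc
*B2m*, mm9 chr2:121973223-121973422, plus strand: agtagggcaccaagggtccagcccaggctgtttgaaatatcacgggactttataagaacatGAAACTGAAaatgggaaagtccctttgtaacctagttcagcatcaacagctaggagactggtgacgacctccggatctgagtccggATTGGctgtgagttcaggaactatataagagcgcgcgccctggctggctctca
*Tap1*, mm9 chr17:34324301-34324500, plus strand: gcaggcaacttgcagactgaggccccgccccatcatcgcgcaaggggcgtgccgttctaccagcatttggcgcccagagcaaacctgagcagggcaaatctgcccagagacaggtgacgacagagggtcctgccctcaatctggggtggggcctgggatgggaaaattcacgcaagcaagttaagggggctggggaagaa

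*H2-K1* and *H2-D1* carried the same elements in the same order, with GGGGANNCC at -141 and -125 in *H2-K1* and at -187 and -171 in *H2-D1* (counted to the gene's start, with -1 the base before it). The later of these overlapped the same letters on the other strand. TGACGC followed at -55 in *H2-K1* and at -101 in *H2-D1*, and CCAAT lay on both strands nearer to the start. *H2-T23* and *B2m* had no GGGGANNCC or TGACGC. They held GAAANNGAA, from -123 to -115 in *H2-T23* (minus strand) and from -139 to -131 in *B2m*, and 1 CCAAT each, from -52 to -48 and from -53 to -49. None of the motifs was found in the 200 bases of *Tap1*, which are shared in large part with *Psmb9*, since the starts of these genes point away from each other with 225 bases between them. In 250 bases before the start, *Tapbp* held 2 CCAAT, *Psmb9* held 1 that *Tap1* shares on the other strand, and *Psmb8* held none of the 5 motifs. Among 32536 promoters of the table, 7.15% held GAAANNGAA, 5.35% GGGGANNCC, 33.8% CCAAT, 6.15% TGACGC and 1.56% TGACGTCA. Such matches describe letters and are not evidence of binding. Only these strings were sought, and variants of the elements that differ by a letter were not. A gene without a string may therefore still carry the element, and the promoters cannot be ranked by it.

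The 8 genes other than *B2m* and *Nlrc5* share chromosome 17. From *Psmb9* (mm9 chr17:34319044-34324275) through *Tap1* (34324501-34334170) and *Psmb8* (34335140-34338399) to *Tap2* (34341424-34353266) they span 34223 bases. *Tapbp* (34056423-34066235) and *H2-K1* (34132957-34137278) lie before this stretch, and *H2-D1* (35400039-35404442) and *H2-T23* (36166922-36169646) after it. *B2m* lies on chromosome 2 (121973423-121978818) and *Nlrc5* on chromosome 8 (96996663-97051172).

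The classical heavy chain *H2-K1* was measured at 554 TPM at P2, 252 at P4, 250 at P10 and 130 at P25 in progenitor medium, at 436 at P10 and 141 at P25 in differentiating medium, and at 272, 215 and 215 in IMOK. mSGc thus reached both above and below IMOK. *B2m*, the shared light chain, was measured at 2070, 511, 541 and 306 TPM at P2, P4, P10 and P25 in progenitor medium, at 1165 and 289 at P10 and P25 in differentiating medium, and at 1033, 520 and 581 in IMOK. With *H2-D1* left aside, it was the most abundant of these genes in all 9 libraries, followed in each by *H2-K1*. *H2-D1* was measured at 162, 55.6, 46.7 and 49.5 TPM in progenitor medium, at 127 and 55.6 in differentiating medium, and at 68.3, 40.6 and 36.0 in IMOK. The entry shares 1060 of its 1736 exon bases with the entry of the heavy chain gene *H2-L*, which had no counts in any library, so its level was compared between libraries but not with other genes. Close copies among class I genes can divide reads in ways that are not stated, which holds for *H2-K1* and *H2-T23* too.

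*H2-T23* was the gene that separated the lines. It was measured at 155, 87.9, 144 and 78.4 TPM at P2, P4, P10 and P25 in progenitor medium and at 154 and 63.1 TPM at P10 and P25 in differentiating medium. In IMOK it was at 22.99, 15.2 and 8.24 TPM, so the lowest mSGc library lay above the highest IMOK library. Of 12884 genes, 5.22% had every mSGc library above every IMOK library, and *H2-T23* was the 1 of the 10 that did. The mean was 114 ± 41.8 TPM (SD, n = 6) in mSGc and 15.5 ± 7.38 TPM (SD, n = 3) in IMOK. In edgeR's quasi-likelihood test the log2 fold change was 3.10 (SE 0.38, adjusted p = 0.00101), and P10 alone gave 3.48 (SE 0.37, adjusted p = 0.0148). Leaving out any 1 library kept the first of these between 2.83 and 3.42, and the call held each time. At P10 the call was lost without the library in progenitor medium (adjusted p = 0.0827), without that in differentiating medium (0.104) and without IMOK replicate 2 (0.0901), at log2 fold changes of 3.43, 3.50 and 3.45.

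**Figure D1:**
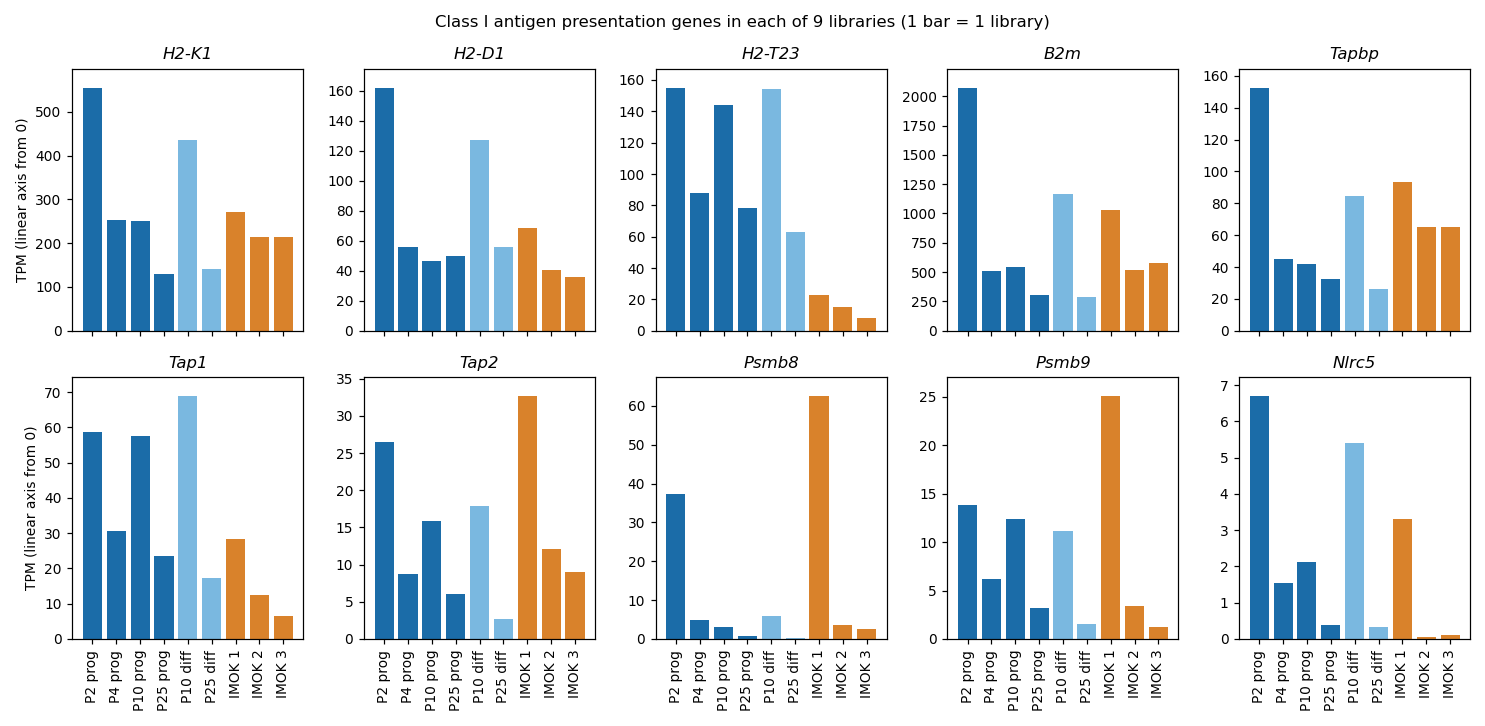
Level of each of the 10 genes in TPM (linear vertical axes from 0, with a scale per gene) in 4 mSGc libraries in progenitor medium (dark blue), 2 in differentiating medium (light blue) and 3 IMOK replicates (orange), with 1 bar per library. *H2-T23* is above 63 TPM in every mSGc library and at or below 22.99 TPM in IMOK, while P2 and IMOK replicate 1 stand out for *Psmb8*, at 37.2 and 62.5 TPM.

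The peptide transporter gene *Tap1* was measured at 58.7, 30.6, 57.6 and 23.5 TPM at P2, P4, P10 and P25 in progenitor medium, at 68.8 and 17.4 TPM at P10 and P25 in differentiating medium, and at 28.3, 12.5 and 6.43 TPM in IMOK. Its partner *Tap2* was measured at 26.5, 8.77, 15.9 and 6.00 TPM in progenitor medium, at 17.9 and 2.69 TPM in differentiating medium, and at 32.7, 12.1 and 9.07 TPM in IMOK. The ratio of *Tap1* to *Tap2* was 2.22 to 6.47 in the mSGc libraries and 0.866, 1.03 and 0.709 in IMOK, without overlap, and was not tested. Its highest value, at P25 in differentiating medium, rests on 21 counts of *Tap2*. How often ratios of other gene pairs separate these libraries was not computed. *Tapbp* was measured at 152, 44.9, 41.7 and 32.8 TPM in progenitor medium, at 84.3 and 26.3 TPM in differentiating medium, and at 93.7, 65.4 and 64.9 TPM in IMOK. All 3 IMOK libraries lay above 4 of the 6 mSGc libraries for this gene.

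The catalytic immunoproteasome subunit *Psmb8* varied widely within each line. Its counts were 241, 54, 17 and 8 at P2, P4, P10 and P25 in progenitor medium, 45 and 1 at P10 and P25 in differentiating medium, and 651, 38 and 25 in IMOK. These correspond to 37.2, 4.92, 3.02, 0.770, 5.82 and 0.260 TPM in mSGc and to 62.5, 3.60 and 2.55 TPM in IMOK. P2 and IMOK replicate 1 were far above the other libraries. *Psmb9* had 59, 45, 46 and 22 counts in progenitor medium, 57 and 4 in differentiating medium and 172, 24 and 8 in IMOK, or 13.8, 6.22, 12.4, 3.21, 11.2 and 1.58 TPM in mSGc and 25.04, 3.45 and 1.24 TPM in IMOK. *Psmb9* did not share the gap between P2 and P10 that *Psmb8* showed.

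Psmb8, Psmb9 and Psmb10 take the places of Psmb5, Psmb6 and Psmb7 in the proteasome, so each was also set against the subunit it replaces. *Psmb8* made up 12.9% of the summed TPM of its pair at P2, 0.105% to 3.04% in the other mSGc libraries, and 26.7%, 2.03% and 1.44% in IMOK. *Psmb9* made up 0.497% to 5.11% of its pair in mSGc and 8.78%, 1.04% and 0.392% in IMOK. *Psmb10* went another way, with 6.35% to 10.6% in mSGc, the highest at P25 in progenitor medium, and 4.96%, 7.36% and 6.98% in IMOK, where replicate 1 had the lowest share. Over all 3 pairs the immunoproteasome subunits held 5.61% ± 1.23 (SD, n = 6) of the TPM in mSGc and 6.56% ± 3.88 (SD, n = 3) in IMOK, a difference smaller than the spread within either group. Without IMOK replicate 1 the IMOK share was 4.32% ± 0.208 (SD, n = 2), below the mSGc mean, so the direction rested on that library.

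**Figure D2:**
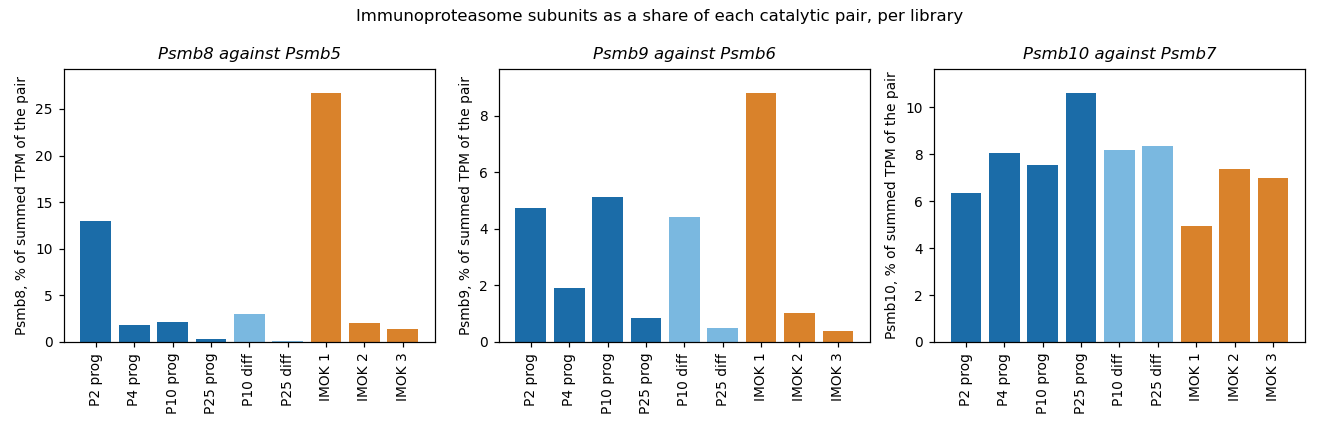
Share of *Psmb8*, *Psmb9* and *Psmb10* in the summed TPM of each with the constitutive subunit it replaces (percent, linear axes from 0 with a scale per panel), 1 bar per library, with mSGc in progenitor medium in dark blue, in differentiating medium in light blue and IMOK in orange. *Psmb8* reaches 12.9% at P2 and 26.7% in IMOK replicate 1, while *Psmb10* stays between 4.96% and 10.6% in all libraries.

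The activator *Nlrc5* had the lowest level in 8 of the 9 libraries, with *H2-D1* again left aside. Its counts were 246, 97, 68 and 22 at P2, P4, P10 and P25 in progenitor medium and 237 and 7 at P10 and P25 in differentiating medium, or 6.69, 1.56, 2.13, 0.373, 5.39 and 0.321 TPM. In IMOK it had 196, 4 and 6 counts, or 3.31, 0.0668 and 0.108 TPM. IMOK replicate 1 thus lay within the range of mSGc, and replicates 2 and 3 below all mSGc libraries.

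Between the lines, 1 of the 10 genes differed at an adjusted p under 0.05 in edgeR's quasi-likelihood test of all 6 mSGc against 3 IMOK libraries, where 14.9% of 12885 genes did. This was *H2-T23*, and in the test of the P10 libraries alone it was again the 1 gene called, where 4.2% of 13018 genes were called. *Tap1* had a log2 fold change of 1.67 (SE 0.51, adjusted p = 0.0517) over all mSGc and of 2.23 (SE 0.52, adjusted p = 0.071) at P10. *H2-D1* had 0.97 (SE 0.40) and *H2-K1* 0.51 (SE 0.39), with adjusted p-values of 0.133 and 0.417. *B2m*, at 814 ± 693 TPM in mSGc (SD, n = 6) and 711 ± 280 TPM in IMOK (SD, n = 3), gave 0.37 (SE 0.56, adjusted p = 0.704). *Tapbp*, *Tap2* and *Psmb9* gave -0.05, -0.25 and -0.03, each with an SE above its size. *Psmb8* at -1.16 (SE 1.26) and *Nlrc5* at 1.48 (SE 1.26) had the widest errors. The median over the 10 genes was 0.44, and that of all genes tested was 0.00. The fit of chromosome 8, which carries *Nlrc5*, had a median of 0.35 over 709 genes against -0.01 for the rest, and its part in the value of *Nlrc5* was not tested.

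Without IMOK replicate 1, 3 of the 10 genes were higher in mSGc at an adjusted p under 0.05, against 7.18% of all genes tested. These were *H2-T23*, *Tap1* at a log2 fold change of 2.30 (adjusted p = 0.0237) and *Nlrc5* at 5.001 (SE 1.40, adjusted p = 0.043). At P10, 4 of the 10 were then higher, against 14.0% of all genes, with *Psmb9* at 2.43 (SE 0.62, adjusted p = 0.0414) beside *H2-T23*, *Tap1* at 2.84 and *Nlrc5* at 5.46. The median over the 10 genes moved from 0.44 to 1.40 over all mSGc libraries, and that of all genes tested to 0.05. *Psmb8* moved from -1.16 to 1.57 (SE 1.46) and *Psmb9* from -0.03 to 1.90 (SE 0.85), both short of the threshold. *H2-K1* was then at 0.56, *Tapbp* at 0.07, *H2-D1* at 1.22 and *B2m* at 0.65, none past the threshold. Replicate 1 held the highest IMOK level of each of the 10 genes, and every fitted change rose when it was left out. Omitting replicate 2 or replicate 3 instead left 1 gene called each over all mSGc libraries, and 0 and 1 at P10.

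**Figure D3:**
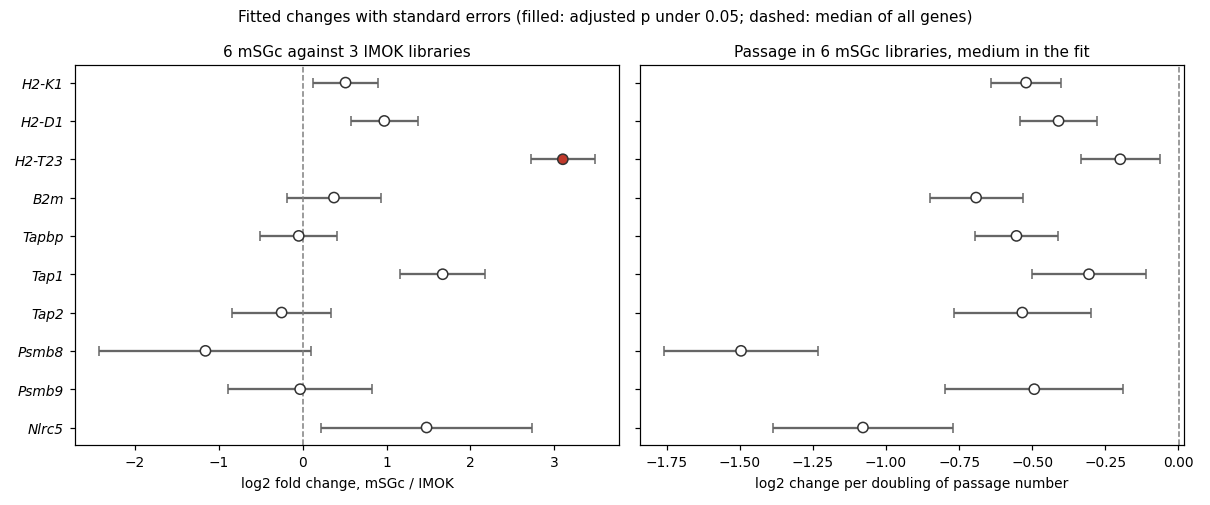
Fitted log2 changes of the 10 genes from edgeR, with bars of 1 standard error, for 6 mSGc against 3 IMOK libraries (left) and per doubling of the passage number in the 6 mSGc libraries with medium in the fit (right). Filled points passed an adjusted p of 0.05 and the dashed line is the median of all genes. *H2-T23*, at 3.10, is the filled point on the left, and all 10 points on the right lie below 0.

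IMOK replicate 1 itself was at least 1.5-fold above the mean of replicates 2 and 3 for 8 of the 10 genes, where 33.6% of 12884 genes were. The ratio was 37.9 for *Nlrc5*, 20.3 for *Psmb8* and 10.7 for *Psmb9*. It was 3.08 for *Tap2*, 2.99 for *Tap1*, 1.97 for *H2-T23*, 1.88 for *B2m* and 1.79 for *H2-D1*, and below 1.5 for *Tapbp* (1.44) and *H2-K1* (1.27). *Nlrc5* and both immunoproteasome subunits thus differed most. With 1 library on one side this has no test. The same library held the highest leukocyte marker sum, through *Cd68*, and fibroblast markers at 6.41 TPM, and their part in these values was not tested.

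Across passage, every one of the 10 genes had a negative fitted change in edgeR, with medium in the fit, where 49.2% of 12451 genes did. *Psmb8* changed by -1.50 per doubling of the passage number (log2, SE 0.26, adjusted p = 0.0694) and *Nlrc5* by -1.08 (SE 0.31, adjusted p = 0.201). *B2m* gave -0.69 (SE 0.16) and *H2-K1* -0.52 (SE 0.12), both with an adjusted p of 0.123, and *Tapbp* gave -0.55 (SE 0.14, adjusted p = 0.163). *Tap2* gave -0.53 (SE 0.23), *Psmb9* -0.49 (SE 0.30), *H2-D1* -0.41 (SE 0.13), *Tap1* -0.31 (SE 0.20) and *H2-T23* -0.20 (SE 0.14). The median of the 10 was -0.53 and that of all genes 0.00. None of the 10 passed an adjusted p under 0.05 in edgeR, where 0.49% of all genes did, and 6 had an unadjusted p under 0.05 and a negative change, where 9.09% of all genes did. limma's voom also called none.

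The call depended on the tool and the libraries used. DESeq2 called 5 of the 10 lower with passage, where it called 4.65% of all genes lower. They were *Psmb8* at -1.51 (adjusted p = 5.97e-05 in DESeq2), *Nlrc5* at -1.09 (0.00886), *B2m* at -0.70 (0.00248), *Tapbp* at -0.56 (0.021) and *H2-K1* at -0.52 (0.00297). With P10 and P25 only and medium as a block, edgeR called 4 lower at P25, where it called 4.44% of 11938 genes lower. These were *Nlrc5* at -3.02 (SE 0.55, adjusted p = 0.0258), *Tap2* at -1.83 (SE 0.42, adjusted p = 0.0489), *Tap1* at -1.46 (SE 0.26, adjusted p = 0.0252) and *H2-K1* at -1.11 (SE 0.25, adjusted p = 0.0468). The values stayed negative for all 10 genes under each alternative and each omitted library. Without P2 the median of the 10 was -0.49, and 2 instead of 6 had an unadjusted p under 0.05.

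In single libraries, P2 lay at least 2-fold above P25 in progenitor medium for 9 of the 10 genes, where 19.9% of 12450 genes did. The ratio ran from 2.51 for *Tap1* and 3.27 for *H2-D1* through 4.25 for *H2-K1* and 6.76 for *B2m* to 18.0 for *Nlrc5* and 48.4 for *Psmb8*, and was 1.98 for *H2-T23*. P2 was the highest of the 6 mSGc libraries for 9 genes, where it was for 23.2% of all genes, and *Tap1* was highest at P10 in differentiating medium. In differentiating medium P10 lay at least 2-fold above P25 for all 10, where 16.9% of genes did, from 2.29 for *H2-D1* to 16.8 for *Nlrc5*. *Psmb8*, with 1 count at P25, is given no ratio there. P4 did not lie between P2 and P10 for *H2-T23*, *B2m*, *Tap1*, *Tap2*, *Psmb9* and *Nlrc5*, all of which were lower at P4 than at P10. P2 also held the highest fibroblast marker sum, through *Col1a2* at 9.88 and *Col1a1* at 6.68 TPM, and the part of such cells was not tested.

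Between media, none of the 10 genes passed in edgeR, where 0.0241% of 12451 genes did, none had an unadjusted p under 0.05, and DESeq2 and voom called none. *Nlrc5* had the highest value, at 1.31 (SE 0.73, adjusted p = 0.758), followed by *H2-D1* at 0.67 (SE 0.39, adjusted p = 0.767), *B2m* at 0.60 (SE 0.43), *Psmb8* at 0.52 (SE 0.70) and *H2-K1* at 0.50 (SE 0.32). *Tapbp* gave 0.34 (SE 0.40), and *Tap1*, *H2-T23*, *Tap2* and *Psmb9* gave 0.19, 0.00, -0.02 and -0.06. These values pool P10 and P25, which differed from each other. At P10 the library in differentiating medium lay at least 1.5-fold above that in progenitor medium for 6 of the 10 genes, where 20.9% of 12450 genes did. These were *H2-D1* (2.72), *Nlrc5* (2.53), *B2m* (2.15), *Tapbp* (2.02), *Psmb8* (1.92) and *H2-K1* (1.74), while *H2-T23*, *Tap1*, *Tap2* and *Psmb9* had ratios of 0.901 to 1.20. At P25 no gene of the 10 reached 1.5-fold, where 19.5% of genes did. Its ratios ran from 0.338 for *Psmb8*, which rests on 8 and 1 counts, and 0.448 for *Tap2* to 1.12 for *H2-D1*. With 1 library a condition these ratios have no test. The median fitted change of the 10 between media was 0.42, and -0.74 without the P10 library in differentiating medium.

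The 10 genes differed in how alike they were to each other. Within mSGc, Pearson's r of log2(TPM + 1) over the 6 libraries was 0.99 for *H2-T23* with *Tap1*, 0.97 for *H2-T23* with *Psmb9*, 0.99 for *B2m* with *Tapbp* and 0.98 for *B2m* with *H2-K1*. It was 0.57 for *H2-D1* with *Psmb9*. Over all 9 libraries *H2-K1* with *B2m* gave 0.96, and *H2-T23* with *Tapbp* gave -0.03. Libraries share depth, passage and line across these points, so the values describe them and carry no p-value.

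Among 10189 genes with a mean of at least 5 TPM, those with the pattern closest to *B2m* over the 9 libraries were *Usp18* (r = 0.987), *Ppfia1* (0.969), *Spint2* (0.963), *Irgm1* (0.963) and *Kif1c* (0.959). For *H2-K1* they were *Kif1c* (0.981), *Ifih1* (0.962), *Irgm1* (0.961), *Usp18* (0.960) and *Gbp3* (0.959). *Usp18* encodes a protease that removes Isg15 from proteins, and *Ifih1* the RNA sensor MDA5. For *Nlrc5* they were *Tmem127* (0.986), *Ifit3* (0.983), *Dhx58* (0.982), *Rtp4* (0.982) and *Oasl2* (0.978), of which the last 4 are known interferon-stimulated genes. For *Psmb8* they were *Manba* (0.986), *Trim26* (0.977), *Acvr1* (0.973), *Tcn2* (0.972) and *Dlgap4* (0.970).

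Genes of the same pathway were read from lists. Of 16 interferon-stimulated genes outside antigen presentation, none passed between the lines over all mSGc libraries. At an unadjusted p under 0.05 there were 4 of them, where 30.4% of all genes tested were, and 14 had a positive change, where 50.2% of genes did, with a median of 1.29 (log2). *Rsad2* (viperin), at 0.337 to 35.7 TPM in mSGc and 0.429 to 1.30 TPM in IMOK, gave 4.18 (SE 1.33, adjusted p = 0.0604), and the ubiquitin-like *Isg15* gave 3.15 (SE 1.29, adjusted p = 0.129). At P10, where 24.9% of all genes had an unadjusted p under 0.05, 7 of the 16 did, *Rsad2* was higher (4.53, SE 0.76, adjusted p = 0.0405) and the other 15 did not pass, *Ifit1* at 2.997 (SE 1.19) among them. With passage all 16 had negative values, where 49.2% of all genes did, with a median of -1.11. An unadjusted p under 0.05 was reached by 11 of them, where 13.2% of all genes reached it, and none passed. *Usp18* gave -1.50 (SE 0.33) and *Oas1a*, an enzyme of the RNase L pathway, -1.46 (SE 0.31). Between media all 16 had positive values in the fit, where 48.6% of genes did, with a median of 1.01. None passed and 1 had an unadjusted p under 0.05, where 8.18% of genes did, with *Oas1a* at 2.06 (SE 0.85) and *Rsad2* at 1.81 (SE 0.86). This direction came from P10, where 15 of the 16 were higher in differentiating medium on the log2(CPM + 1) scale, while at P25 14 of the 16 were lower there, such as *Xaf1* at -1.24 and *Gbp2* at -1.14. On this scale 9 other proteasome genes also turned, with 8 higher and 1 lower at P10 and 1 higher and 8 lower at P25. The share of all genes was not computed. The summed level of the 16 genes was 2416, 464, 554 and 156 TPM at P2, P4, P10 and P25 in progenitor medium, 1038 and 149 in differentiating medium, and 478, 175 and 141 in IMOK.

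**Figure D4:**
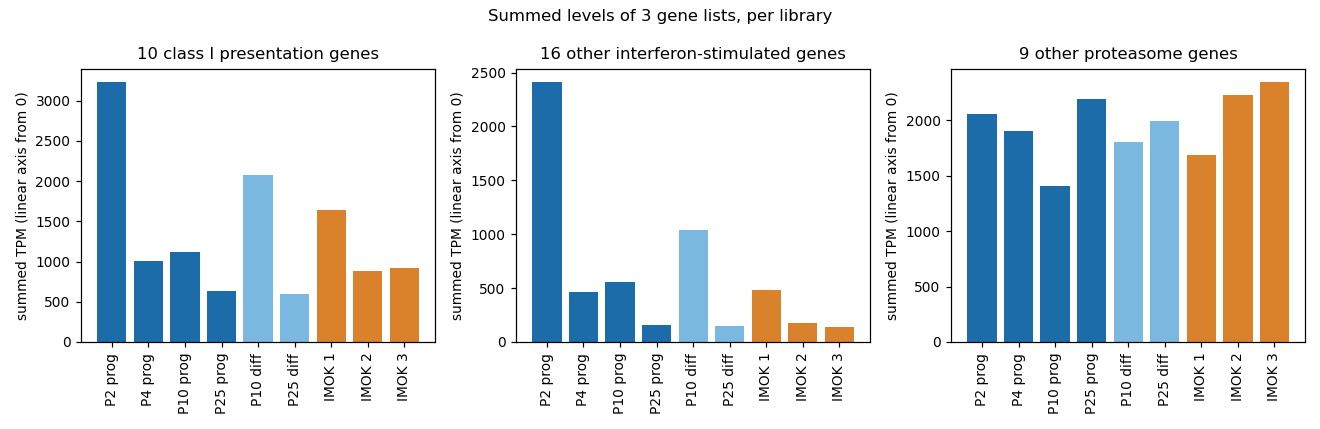
Summed TPM (linear axes from 0, with a scale per panel) of the 10 class I presentation genes, of 16 other interferon-stimulated genes and of 9 other proteasome genes, 1 bar per library, with mSGc in progenitor medium in dark blue, in differentiating medium in light blue and IMOK in orange. The first panel is led by P2 (3236 TPM) and P10 in differentiating medium (2076 TPM) and so is the second (2416 and 1038 TPM), while the proteasome genes stay between 1407 and 2350 TPM.

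Of 9 other proteasome genes none passed in any of the 4 tests. Between the lines over all mSGc libraries 2 had an unadjusted p under 0.05, where 30.4% of all genes did. With passage 1 did, where 13.2% of all genes did, and in the other tests none did. Over all mSGc libraries *Psmb5*, a constitutive catalytic subunit, gave 0.61 (SE 0.26) and the activator *Psme4* 0.44 (SE 0.18), and at P10 *Psme4* gave 0.47 (SE 0.28) and the assembly factor *Pomp* -0.45 (SE 0.50). With passage *Psmb10* gave 0.31 (SE 0.13) and *Psmb6* 0.16 (SE 0.11), and between media they gave -0.49 (SE 0.37) and -0.44 (SE 0.32). The median with passage was 0.05, against -0.53 for the 10 presentation genes.

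Of 6 genes of peptide trimming and chaperoning none passed in any edgeR test. Over all mSGc libraries 3 had an unadjusted p under 0.05, where 30.4% of all genes did. With passage 1 did, where 13.2% of all genes did, and in the other tests none did. The chaperone *Hspa5* gave -1.03 (SE 0.39) and the trimming peptidase *Erap1* -0.85 (SE 0.35) over all mSGc libraries against IMOK, and *Hspa5* and *Calr* (calreticulin) gave -1.34 (SE 0.66) and -1.15 (SE 0.84) at P10. With passage all 6 had negative values, where 49.2% of all genes did, with a median of -0.10. They ran from *Erap1* at -0.41 (SE 0.13) and *Tapbpl* at -0.16 (SE 0.11) to -0.05, so most were close to 0. Between media *Calr* gave 0.42 (SE 0.55) and *Hspa5* 0.40 (SE 0.37).

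Of 24 other class I and class I-like genes, 9 had enough counts to be tested. *H2-T24*, a nonclassical heavy chain gene of the T region like *H2-T23*, was higher in mSGc (2.37, SE 0.53, adjusted p = 0.0158). Its levels were low, at 2.21 to 6.15 TPM in mSGc and 0.478 to 1.72 TPM in IMOK. The lipid-presenting *Cd1d1* gave 1.90 (SE 0.61, adjusted p = 0.0618), and at P10 these genes gave 2.55 (SE 0.68) and 1.20 (SE 0.69). Over all mSGc libraries *H2-T24* was the 1 of the 9 called, where 14.9% of all genes were. An unadjusted p under 0.05 was reached by 4 of the 9, where 30.4% of all genes reached it. Values went both ways, 4 positive and 5 negative, from -1.45 to 2.37 with a median of -0.12. At P10 none of the 9 was called and 1 had an unadjusted p under 0.05, where 24.9% of all genes did. With passage all 9 had negative values, where 49.2% of all genes did, with a median of -0.28. None was called and 1 had an unadjusted p under 0.05, where 13.2% of all genes did. *H2-Q4* gave -0.72 (SE 0.23) and *H2-T10* -0.41 (SE 0.24). *H2-Q4* was at 47.2 TPM at P2, at 3.02 to 13.7 TPM in the other mSGc libraries and at 8.84, 13.9 and 12.4 TPM in IMOK. Between media none passed or reached an unadjusted p under 0.05, with the Fc receptor *Fcgrt* at -0.93 (SE 1.21) and the iron regulator *Hfe* at -0.75 (SE 0.87).

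Of 30 regulators 29 were tested, and 2 differed between the lines over all mSGc libraries, where 14.9% of all genes did. *Ifngr1*, a chain of the interferon gamma receptor, was higher in mSGc (1.01, SE 0.18, adjusted p = 0.00608), at 31.4 to 52.7 TPM against 21.5, 23.2 and 24.4 TPM in IMOK. *Irf1*, an interferon-induced activator of class I genes, was lower (-1.09, SE 0.25, adjusted p = 0.0174), at 9.57 to 18.8 TPM against 37.8, 33.2 and 29.8 TPM. The direction of *Irf1* was thus opposite to that of *H2-T23*. At P10 *Stat2* was higher (1.35, SE 0.18, adjusted p = 0.0254), and *Irf7* gave 2.29 (SE 0.96, adjusted p = 0.212). With passage none of the 29 passed and 5 had an unadjusted p under 0.05, where 13.2% of all genes did. The values largest in size were 1.32 (SE 0.32) for *Irf8* and -0.77 (SE 0.35) for *Irf7*. Between media none passed and 1 had an unadjusted p under 0.05, where 8.18% of all genes did. *Irf7* gave 0.91 (SE 0.86) and the kinase *Jak2* 0.75 (SE 0.28).

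Class II presentation genes were low, with a summed level of 3.13 to 10.3 TPM in mSGc and 5.64 to 14.1 TPM in IMOK. Counts per library were 8 to 108 for *H2-DMb1* and 4 to 41 for *H2-DMa*, and their activator *Ciita* stayed at or below 0.227 TPM. Both genes tested, *H2-DMb1* and *H2-DMa*, gave values short of the threshold, from -1.96 (SE 0.61, *H2-DMb1* at P10 against IMOK) to 0.51 (SE 0.55, *H2-DMa* over all mSGc libraries). With passage these genes gave -0.13 and -0.37, and between media -0.65 and -0.44. None of 7 interferon genes had enough counts to be tested. *Ifnb1* had 4 counts at P2, 1 in IMOK replicate 1 and none in the other 7 libraries, where a count of 0 allows up to 3 counts, or 0.163 to 0.481 CPM over the 9 libraries. Of 10 ligands of natural killer and T cells 4 were tested. *Raet1e*, a ligand of the activating receptor NKG2D, had 2 to 20 counts in the 6 mSGc libraries and none in IMOK, and passed over all mSGc libraries (edgeR, adjusted p = 0.0121) but not at P10 (0.0638). The adhesion ligand *Pvr* gave 0.65 (SE 0.53) over all mSGc libraries, and *Cd274* (PD-L1) gave -0.60 (SE 0.53) at P10. With passage *Raet1e* gave 0.75 (SE 0.37) and *Cd274* -0.57 (SE 0.23), and between media *Cd80* gave -1.28 (SE 0.38) and *Raet1e* -0.49 (SE 0.87), none past the threshold.

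Without IMOK replicate 1 the interferon-stimulated genes changed most among the lists. Over all mSGc libraries 3 of the 16 were then called higher than in IMOK, where 7.18% of all genes were. An unadjusted p under 0.05 was reached by 11, where 4123 of 13064 genes reached it. The 3 called are given next. They were *Oasl2* at 5.53 (SE 1.57, adjusted p = 0.0454), *Ifit3* at 4.95 (SE 1.37, adjusted p = 0.0418) and *Oas2* (adjusted p = 0.0407), which had no counts in IMOK replicates 2 and 3 and 1 to 62 in mSGc, so that no fold is given. At P10, 12 of the 16 were called higher, where 14.0% of all genes were. Among the 12 were *Isg15* at 4.56 (SE 0.27), *Ifit1* at 5.36 (SE 0.34) and *Rsad2* at 5.07 (SE 0.80). *Rsad2* did not pass over all mSGc libraries (4.74, SE 1.71, adjusted p = 0.0933).

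In the same tests without replicate 1, 6 of 29 regulators passed over all mSGc libraries, 4 higher and 2 lower, where 14.7% of all genes passed. At P10 12 passed, 8 higher and 4 lower, where 27.1% of all genes passed. *Irf9*, the DNA-binding partner of *Stat2*, was higher over all mSGc libraries (2.93, SE 0.53, adjusted p = 0.00903), as was *Rfx5*, part of the complex that binds the X box of MHC promoters (1.05, SE 0.30, adjusted p = 0.0484). *Ifngr1* stayed higher (0.91, SE 0.20, adjusted p = 0.0182) and *Irf1* stayed lower (-1.06, SE 0.29, adjusted p = 0.04). *Tyk2* was also higher (0.86, SE 0.205, adjusted p = 0.0241) and *Nfya* also lower (-0.56, SE 0.15, adjusted p = 0.0412). At P10 *Stat2* stayed higher (1.39, SE 0.16, adjusted p = 0.00898). The 4 lower at P10 were *Irf1* (-0.96, adjusted p = 0.0202), *Ezh2* (-0.89, adjusted p = 0.0245), *Nfkb1* (-0.645, adjusted p = 0.0314) and *Nfya* (-0.60, adjusted p = 0.0453). *H2-T24* was higher over all mSGc libraries (3.02, SE 0.54, adjusted p = 0.00861) and at P10 (3.19, SE 0.54), and *Cd1d1* passed over all mSGc libraries (2.50, SE 0.69, adjusted p = 0.0413). Of the 6 genes of peptide trimming and chaperoning 2 were lower over all mSGc libraries, where 980 of 13064 genes were. They were *Hspa5* at -1.45 (SE 0.26, adjusted p = 0.00891) and the disulphide isomerase *Pdia3* at -0.87 (SE 0.22, adjusted p = 0.0284). At P10 *Erap1* at -0.80 (SE 0.19, adjusted p = 0.0349) was lower beside them. Of the 9 other proteasome genes none passed over all mSGc libraries, with 1 at an unadjusted p under 0.05, and *Pomp* was lower at P10 (-0.79, SE 0.22, adjusted p = 0.0476). No class II gene passed, and *Raet1e* passed in both tests (adjusted p = 0.0253 and 0.0244).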

How the data were processed

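RNA was sequenced from 6 mSGc and 3 IMOK libraries (TruSeq kit, Illumina HiSeq). The authors aligned reads to mm9 with TopHat2 2.1.1 on Bowtie2 2.2.6, counted reads on genes with featureCounts 1.5.1, and deposited these counts without normalization, per the submitters' processing notes, which also name DESeq2 1.12.4. The annotation, the use of strand and the treatment of reads with several matches are not given in the sources used here. Nothing says that libraries came from separate cultures, so p-values measure the spread between these libraries, which may be technical between IMOK replicates. Each mSGc library is a condition of its own. Against IMOK, the spread within mSGc therefore includes differences of passage and medium, as do the SDs over 6 mSGc libraries.

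TPM were computed from the deposited counts and gene lengths over all 23366 entries, 27 of which carry names turned into dates. Tests used edgeR 4.0.16 in R 4.3.3 (quasi-likelihood, TMM, filterByExpr, Benjamini-Hochberg adjustment over all genes tested, threshold 0.05), for all mSGc and for P10 mSGc against IMOK, and for medium and log2 passage number in 1 fit of the 6 mSGc libraries, which has no second library of any condition. Standard errors are the absolute log2 fold change over the square root of F. Tests recovered known changes in simulated counts. Whether they would do so at the spread between the libraries used here was not tested. Python 3.11.15, pandas 2.3.3 and numpy 2.4.6 served for tables, and promoters were placed in mm9 by exact match. Libraries held 6237884 to 18444963 counts, so 3 counts equal 0.163 to 0.481 CPM, which covers counting error only.

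The 10 genes, the lists and the tests were chosen with earlier results of these data known. The tests without IMOK replicate 1 name only some genes of the lists, so a gene not named there may have passed. In the other tests the genes named are the 10 and, of each list, those past the threshold, or the 2 with the largest absolute change where fewer than 2 passed. A result that this rule names is not reported here. The patterns most like that of *H2-K1*, *B2m*, *Psmb8* and *Nlrc5* were the 5 highest Pearson correlations for each. Alternatives were DESeq2 1.42.0, limma 3.58.1 with voom, no TMM factors, other filters, an untransformed passage number, fewer libraries and blocks for medium or passage.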

Additional observations from a re-analysis of the deposited data

Results flagged for a closer look

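For 7 of the 10 genes the difference between media had one direction at P10 and the opposite one at P25 on the scale of log2(CPM + 1). Differentiating minus progenitor medium was 0.69 at P10 and -0.02 at P25 for *H2-K1*, 1.00 and -0.21 for *B2m*, and 0.15 and -0.54 for *Tap1*. It was 0.06 and -1.08 for *Tap2*, 0.90 and -0.44 for *Tapbp*, 0.60 and -0.39 for *Psmb8*, and 1.13 and -0.19 for *Nlrc5*. For *H2-K1* the sign at P25 depends on the scale, since in TPM the library in differentiating medium was higher at P25 too (141 against 130, a ratio of 1.079, beside 1.74 at P10). The change between passages was thus 0.71 for *H2-K1*, 1.21 for *B2m*, 0.69 for *Tap1*, 1.14 for *Tap2*, 1.33 for *Tapbp*, 0.99 for *Psmb8* and 1.33 for *Nlrc5*. With 1 library a condition the difference was not tested, and the P25 library in differentiating medium was the shallowest of all. The turn was not particular to these genes. Of the 9 other proteasome genes, 8 were higher and 1 lower in differentiating medium at P10 on this scale. At P25, 1 of them was higher and 8 were lower. The scale uses no TMM factors, and the share of all genes that turned was not computed.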

How the results depend on the processing

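Depth limits *Psmb8*, *Psmb9* and *Nlrc5*, which had under 10 counts in 1 or more libraries: at 10 counts in every library, 7 of the 10 genes could be tested over all mSGc, medium and passage, and 8 at P10. Between the lines over all mSGc, DESeq2, voom and no filter called 2 genes each in place of 1, adding *Tap1*, and omitting 1 library gave 1 to 3, with 2 without P25 in differentiating medium and 3 without IMOK replicate 1. At P10 DESeq2 called 2 in place of 1, adding *Tap1*, and omissions gave 0 to 4, with 4 without IMOK replicate 1. With passage DESeq2 called 5 in place of 0, no filter 1, medium as a replicate block (P10 and P25 only) 4, and omissions 0 to 1, the 1 being *Psmb8* without P10 in progenitor medium. All 10 genes kept a negative change with passage throughout. For medium, the replicate block of passage (P10 and P25 only) called 0, and so did every alternative run. No block was possible between the lines, which share no pairing.

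Directions turned as follows (log2). Over all mSGc, *Psmb9* was 0.60 with voom and 0.042 with no filter. For medium, *H2-T23* was 0.007 with DESeq2 and 0.055 without TMM factors, *Tap1* -0.22 with the replicate block, *Tap2* 0.19 with voom and 0.039 without TMM factors, and *Psmb9* 0.14 with voom. On omitting 1 library, values over all mSGc ran from -0.13 to 0.65 for *B2m*, -0.56 to 0.40 for *Tap2*, -0.48 to 0.11 for *Tapbp*, -2.62 to 1.57 for *Psmb8* and -0.54 to 1.90 for *Psmb9*. At P10 they ran from -0.12 to 0.82 for *B2m*, -0.19 to 0.78 for *Tap2*, -0.59 to 0.27 for *Tapbp*, -2.67 to 0.61 for *Psmb8* and -0.035 to 2.43 for *Psmb9*. For medium they ran from -0.07 to 0.79 for *H2-K1*, -0.65 to 0.31 for *H2-T23*, -0.08 to 1.05 for *B2m*, -0.93 to 0.64 for *Tap1*, -1.53 to 0.50 for *Tap2*, -0.23 to 0.97 for *Tapbp*, -1.48 to 0.95 for *Psmb8*, -1.74 to 0.47 for *Psmb9* and -0.82 to 1.87 for *Nlrc5*. The cause of these turns was not tested.

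Over all genes, DESeq2 called 2905, 2231, 272 and 700 genes for all mSGc, P10, medium and passage, against 1918, 547, 3 and 61 with edgeR. Without IMOK replicates 1, 2 and 3 in turn, edgeR called 1918, 738 and 943 genes over all mSGc and 3416, 36 and 69 at P10, where omitting either P10 library left 0 (2343 or 2163 at an unadjusted p under 0.05). The blocks called 123 for medium and 915 for passage, and omitting P2 or P25 in progenitor medium left 0 for passage.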
